A study of Mus musculus with 6 samples.

Results

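The ID genes Id1, Id2, Id3 and Id4 encode a small family of transcriptional inhibitors, and all 4 were found by symbol among the 54752 genes of the count table. They were followed in 6 RNA-seq libraries of NIH/3T3 cells, an established line of mouse embryonic fibroblasts, made after removal of rRNA. The vehicle group (2 libraries) received PBS, the TGFB1 + DMSO group (2 libraries) received TGFB1 at 1 ng/ml with DMSO, and the TGFB1 + BI6727 group (2 libraries) received TGFB1 at 1 ng/ml with BI6727 at 5 µM, each for 72 h. BI6727 (volasertib) inhibits Polo-like kinases, among them PLK1. The vehicle group differed from the TGFB1 + DMSO group by DMSO as well as by TGFB1, and the effects of the 2 agents cannot be told apart. Nothing in the labels says that the replicates were separate cultures, so that the p-values measure the spread between these samples, which may be technical.

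ID proteins have a helix-loop-helix region, through which they pair with other proteins, but lack the basic region that binds DNA. By pairing with the E proteins (encoded by Tcf3, Tcf4 and Tcf12), they keep E proteins from forming DNA-binding dimers with each other or with tissue-specific partners such as MYOD1 and TWIST1. ID genes are known as direct targets of BMP signalling through SMAD1 and SMAD5, and TGF-β is known to raise or lower them depending on the cell type and the time after stimulation.

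The shared region of the family is shown as the coding sequence of the helix-loop-helix stretch, because it shows how alike the 4 transcripts are and how far reads of 1 member could be confused with those of another. The 120 bases of each gene are given 5′ to 3′ on the GRCm38 build, with capitals for the 69 bases (57.5%) that are the same in all 4 genes.
Id1, chr2:152736518-152736637, plus strand: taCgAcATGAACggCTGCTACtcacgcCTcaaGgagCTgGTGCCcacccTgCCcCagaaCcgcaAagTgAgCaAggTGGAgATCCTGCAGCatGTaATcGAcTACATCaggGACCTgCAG
Id2, chr12:25095783-25095902, minus strand: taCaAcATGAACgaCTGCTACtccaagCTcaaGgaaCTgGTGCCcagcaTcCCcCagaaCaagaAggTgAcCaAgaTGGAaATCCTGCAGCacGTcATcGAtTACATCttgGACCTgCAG
Id3, chr4:136144002-136144121, plus strand: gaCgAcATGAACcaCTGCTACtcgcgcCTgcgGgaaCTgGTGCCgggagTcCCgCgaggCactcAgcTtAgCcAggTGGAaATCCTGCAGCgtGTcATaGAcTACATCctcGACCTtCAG
Id4, chr13:48261693-48261812, plus strand: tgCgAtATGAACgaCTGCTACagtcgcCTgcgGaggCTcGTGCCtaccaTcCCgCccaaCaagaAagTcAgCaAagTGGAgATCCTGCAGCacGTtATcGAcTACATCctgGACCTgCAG

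Within this stretch, Id1 and Id2 were the most alike pair, with 98 of 120 bases identical (81.7%), and Id1 with Id3 and Id3 with Id4 were the least alike, at 70.8% each. No window of 50 bases, the read length, in Id1 or Id3 was found in another annotated gene. Of the windows of Id2, 0.329% were shared with Gm6175, which held at most 1 count in any library. In mm10, Id1 lies on chromosome 2 (152736251 to 152737410, plus strand), Id2 on chromosome 12 (25093799 to 25097140, minus strand), Id3 on chromosome 4 (136143497 to 136145755, plus strand) and Id4 on chromosome 13 (48261228 to 48266026, plus strand). The exons of Id4 overlapped A330033J07Rik and Gm49291 on the opposite strand over 4.44% of their length. The strand setting of the counting is not given in the sources used here, and these antisense genes held at most 2 counts in any library.

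The stretches upstream of the RefSeq start sites of Id2, Id3 and Id4 are shown because every ID gene was lower with TGFB1 + DMSO than with vehicle. Capitals mark a match to GGCGCC, a GC-rich element bound by BMP-responsive SMADs, or to CAGAC, the core of the SMAD-binding element. The stretches are taken from RefSeq on GRCm38.p6. The promoter source used here held no entry for Id1, so that its upstream stretch was neither shown nor searched. The RefSeq starts of Id2 and Id3 lie downstream of those of the mm10 gene spans given above, so that the stretches of these 2 genes lie within those spans. For Id2 the part of the 250-base window outside annotated exons is printed, for Id3 a piece of 30 bases around a match, and for Id4 the whole window.
Id2, chr12:25096254-25096342, minus strand: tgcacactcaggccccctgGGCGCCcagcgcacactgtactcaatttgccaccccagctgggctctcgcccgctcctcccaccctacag
Id3, chr4:136143642-136143671, plus strand: ctgtcctcggcgtCAGACcagcctaaggaa
Id4, chr13:48260866-48261115, plus strand: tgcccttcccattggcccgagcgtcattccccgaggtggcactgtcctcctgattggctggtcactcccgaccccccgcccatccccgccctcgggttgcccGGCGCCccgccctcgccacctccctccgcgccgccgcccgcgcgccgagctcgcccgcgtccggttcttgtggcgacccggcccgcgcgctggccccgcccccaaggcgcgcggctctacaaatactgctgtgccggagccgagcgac

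GGCGCC, which reads the same on both strands, was present once in the windows of Id2 and Id4 and was not found in that of Id3, and 9.59% of the 32851 windows of 250 bases held it. CAGAC, searched on both strands, was found at 2 places for Id3 and at none for Id2 and Id4, against 42.2% of all windows. The Id4 match to GGCGCC lay directly before a match to GGGCGG, the GC box, on the other strand, and 32.7% of all windows held a GC box. The E-box CANNTG was found once for Id2 and not for Id3 or Id4, against 66.2% of all windows. These are matches of letters in these windows, not measured binding sites.

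Library totals ranged from 18362378 to 24452153 counts. The SD of the log2 difference between replicates over the tested genes was 0.163 in the vehicle group and 0.147 in the TGFB1 + BI6727 group but 0.377 in the TGFB1 + DMSO group, whose 2 libraries stand apart from each other. All 12 fibroblast markers were detected in the libraries, with summed levels between 8376 and 11106 normalized CPM. Of the 11 fibroblast markers that passed the filter, Pdgfra and Dcn were called lower in both comparisons with vehicle, and Pdgfrb and Thy1 in that of TGFB1 + BI6727. Over all genes tested, 2.53% were called lower with TGFB1 + DMSO and 2.96% with TGFB1 + BI6727. After filterByExpr, Lum was called lower with TGFB1 + DMSO and with TGFB1 + BI6727, and the epithelial marker Krt14, at no more than 1.83 normalized CPM in any library, higher with TGFB1 + DMSO. Summed markers of endothelial, epithelial and blood cells stayed at or below 5.96 normalized CPM in every library, and Kdr, Tie1, Emcn, Krt5, Krt18 and Cd3e were at 0 throughout. Summed neural markers, nearly all from Tubb3, were 12.2 to 14.7 normalized CPM in the vehicle libraries and 29.7 to 34.4 in the others. Tubb3 was called higher in both comparisons with vehicle, against 2.56% (TGFB1 + DMSO) and 2.34% (TGFB1 + BI6727) of all genes tested. Summed adipocyte markers, mostly Lpl, were 35.3 to 58.8 in the vehicle libraries and at most 8.40 in the others. After filterByExpr, Lpl was called lower in both comparisons with vehicle, against 3.23% (TGFB1 + DMSO) and 3.71% (TGFB1 + BI6727) of genes. The part of these marker changes in the results below was not tested.

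In unstimulated fibroblasts, Id1 and Id3 were abundant transcripts, Id2 was intermediate and Id4 was close to the limit of the test. Compared per length, as TPM (each gene's count over its length, scaled to the same sum in every library), Id1 had 325 and 313 in the 2 vehicle libraries, which placed it at ranks 406 and 411 among the 18911 and 19020 genes with counts. Id3 followed at 263 and 224 TPM, Id2 at 81.7 and 77.2 TPM, and Id4 at 4.29 and 4.15 TPM. The values per length and the normalized CPM given below order the 2 TGFB1 + DMSO libraries differently: Id1 had 138.9 and 133.6 TPM there but 79.0 and 99.3 normalized CPM. By TPM the order Id1, Id3, Id2, Id4 held in all 6 libraries, and within each group the values of neighbours in this order did not overlap. This order rests on the gene lengths of the count table. In normalized CPM, Id3 was above Id1 in both vehicle libraries (238.6 and 205.7 against 191.3 and 185.9). Id1 made up 48.3 to 58.5% of the summed ID TPM in a library and Id3 35.2 to 38.98%, whereas Id2 made up 12.1 and 12.5% of the sum in the vehicle libraries and between 5.25 and 8.55% in the others.

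All 4 ID genes were lower with TGFB1 + DMSO than with vehicle, by between 2.12 and 3.89 times on group means of normalized CPM, the count per gene relative to the TMM-scaled library size. A gene is called here when its adjusted p (edgeR quasi-likelihood test, Benjamini-Hochberg) is below 0.01 and its fold change above 2. Id1, Id2 and Id3 passed the filter of at least 10 CPM in more than 3 samples, and all 3 were called lower, against 2.53% of the 9518 genes tested. In a pooled culture, fewer cells expressing a gene and less RNA per cell cannot be told apart. Id4 failed that filter and was called lower in the fit with edgeR's filterByExpr, in which 3.23% of 14604 genes were called lower.

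Id2, the member with the largest fall, had 100.9 and 96.5 normalized CPM (1944 and 2120 counts) in the vehicle libraries, 25.6 and 25.2 (530 and 523 counts) in the TGFB1 + DMSO libraries, and 24.0 and 16.6 (431 and 402 counts) in the TGFB1 + BI6727 libraries. All 4 libraries with TGFB1 lay far below the vehicle libraries. In normalized CPM both TGFB1 + BI6727 libraries lay below both TGFB1 + DMSO libraries, but this depended on the scaling. In TPM these groups overlapped, at 17.7 and 12.9 with TGFB1 + BI6727 and 21.4 and 16.1 with TGFB1 + DMSO. The TGFB1 + DMSO mean was 25.7% of the vehicle mean, and the log2 fold change was -1.96 ± 0.17 (SE), with an adjusted p of 0.000412 by edgeR. Among the 9518 genes, Id2 had rank 39 from the largest fall on the log2 scale, while Id3 had rank 122 and Id1 rank 216. That filter drops genes that are high only with vehicle. Among the 14604 genes kept by filterByExpr, the ranks were 260 for Id2, 551 for Id3 and 815 for Id1.

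Id3 had 238.6 and 205.7 normalized CPM with vehicle (4594 and 4521 counts), 77.5 and 97.5 with TGFB1 + DMSO (1605 and 2026 counts), and 106.0 and 82.8 with TGFB1 + BI6727 (1906 and 2001 counts). The vehicle libraries were well above the rest, and the 2 groups with TGFB1 overlapped. Relative to vehicle, the TGFB1 + DMSO mean was 39.4%, a log2 fold change of -1.34 ± 0.17 with an adjusted p of 0.00168 by edgeR.

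Id1, the member with the highest TPM, had 191.3 and 185.9 normalized CPM with vehicle (3684 and 4085 counts), 79.0 and 99.3 with TGFB1 + DMSO (1636 and 2062 counts), and 107.4 and 88.3 with TGFB1 + BI6727 (1930 and 2134 counts). The pattern was that of Id3, with overlap only between the groups with TGFB1. The TGFB1 + DMSO mean was 47.3% of the vehicle mean, and the log2 fold change of -1.08 ± 0.14 lay just past the 2-fold limit, with an adjusted p of 0.00236 by edgeR.

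Id4 had 8.36 and 8.19 normalized CPM with vehicle (161 and 180 counts), 3.52 and 3.42 with TGFB1 + DMSO (73 and 71 counts), and 4.84 and 3.35 with TGFB1 + BI6727 (87 and 81 counts). Even at this low level the vehicle libraries did not overlap the others. The log2 fold change of TGFB1 + DMSO against vehicle was -1.24 ± 0.24, with an adjusted p of 0.00813 by edgeR after filterByExpr.

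**Figure D1:**
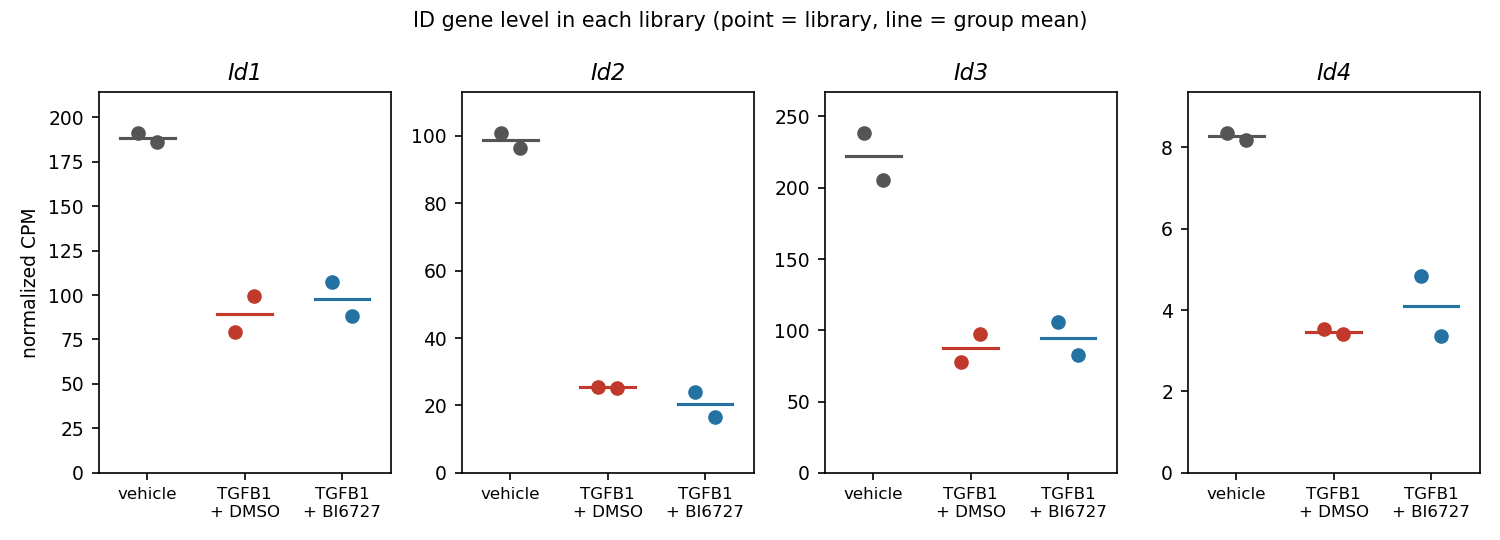
Normalized CPM (y axis, linear from 0, a separate scale for each gene) of Id1, Id2, Id3 and Id4 in the 3 groups, with a point for each library and a line for each group mean. In every panel both vehicle libraries lie above all libraries with TGFB1, from 185.9 against at most 107.4 for Id1 to 8.19 against at most 4.84 for Id4.

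The calls rested on both vehicle libraries. With vehicle replicate 1 or 2 left out, none of the 4 was called in TGFB1 + DMSO against vehicle, although the log2 fold changes stayed between -1.99 and -1.07. The adjusted p by edgeR was then 0.0138 and 0.0105 for Id2, 0.0337 and 0.0186 for Id3, 0.0412 and 0.0325 for Id1, and 0.0719 and 0.0620 for Id4. In these fits the lone vehicle library is assumed to vary like the other groups. Without TGFB1 + DMSO replicate 1, Id1 came to -0.93, under 2-fold. Id4 also missed the limit without either TGFB1 + BI6727 library, at adjusted p 0.0129 and 0.0123 by edgeR, since the spread is estimated over all 6 libraries. All 4 genes had every TGFB1 + DMSO library below every vehicle library, as had 32.8% of the 14604 genes kept by filterByExpr.

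No difference in any ID gene between the TGFB1 + BI6727 and TGFB1 + DMSO groups was detectable with 2 libraries a group. The comparison of TGFB1 + BI6727 with TGFB1 + DMSO asks what the inhibitor adds to the stimulated state. No ID gene was called, and edgeR called 0% of the 9518 genes higher and 0% lower in this comparison, while 636 genes had an unadjusted p below 0.05 and DESeq2 called 11. None of Id1, Id2 and Id3 was among the 636. For Id1 the log2 fold change was 0.13, with a 95% interval from -0.20 to 0.47. For Id3 it was 0.11 (95% interval from -0.28 to 0.49) and for Id4, after filterByExpr, 0.24 (95% interval from -0.33 to 0.80). Id2 alone was on the lower side, at -0.33 (95% interval from -0.74 to 0.08). These intervals allow, for Id1, a level of 0.870 to 1.38 times that with TGFB1 + DMSO, and for Id2 one of 0.601 to 1.06 times. The adjusted p by edgeR was 0.880 for Id1, 0.760 for Id2, 0.910 for Id3 and 0.872 for Id4. The sign of the difference for Id1 and Id3 turned when TGFB1 + DMSO replicate 1 was left out (-0.022 and -0.049) or TGFB1 + BI6727 replicate 1 (-0.013 and -0.079), and that of Id4 turned without TGFB1 + BI6727 replicate 1 (-0.043). Id2 kept its sign but came to -0.61 without TGFB1 + BI6727 replicate 1 and to -0.079 without TGFB1 + BI6727 replicate 2.

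**Figure D2:**
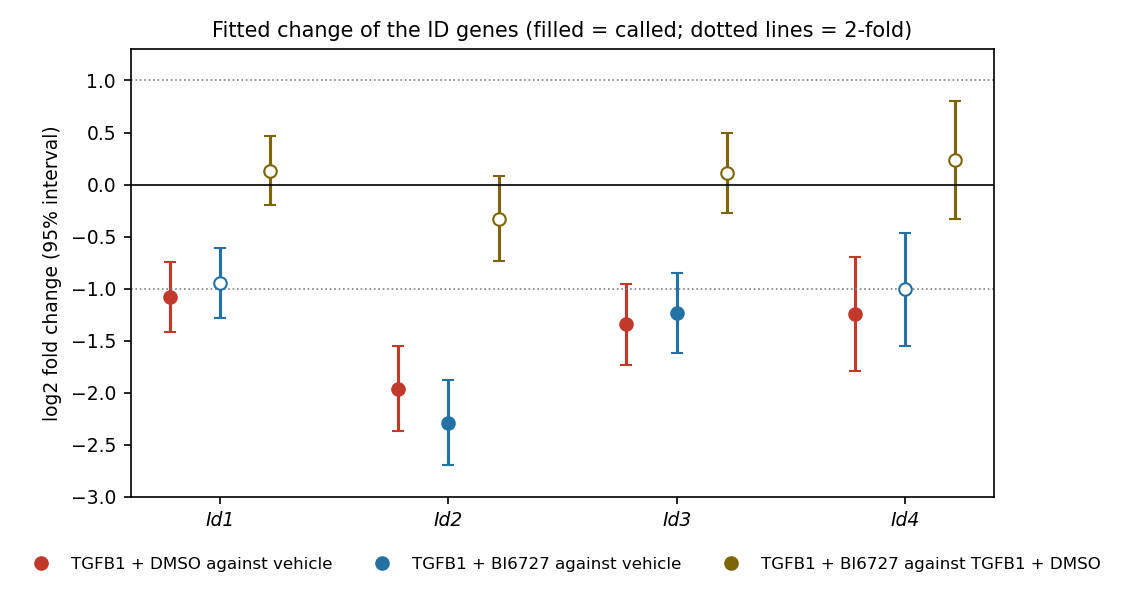
Log2 fold change (y axis) of each ID gene in the 3 comparisons, with bars for the 95% interval of the edgeR fit; filled points are called, open points are not, and dotted lines mark 2-fold. The intervals of both comparisons with vehicle lie below 0 for all 4 genes, and those of TGFB1 + BI6727 against TGFB1 + DMSO include 0 for all 4.

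With TGFB1 + BI6727, all 4 ID genes again lay below vehicle, and 2 of the 3 that passed the filter were called lower, against 2.96% of 9518 genes. This comparison uses the same vehicle libraries as the one before, so that the values are given side by side and not as a repeat. Id2 stood at 20.6% of the vehicle mean, at -2.29 ± 0.18 on the log2 scale (adjusted p = 0.000196 by edgeR), beside -1.96 with DMSO. Id3 stood at 42.5%, with -1.24 ± 0.16 (adjusted p of 0.00225 by edgeR), beside -1.34. Id1 was at 51.9%, and its log2 fold change of -0.95 ± 0.14 (adjusted p = 0.00369 by edgeR) was under the 2-fold limit, beside -1.08. Id4 was at 49.5%, with -1.01 ± 0.24 after filterByExpr and an adjusted p of 0.0180 by edgeR, which missed the limit, in a fit that called 3.71% of genes lower. The call of Id3 was lost when any 1 of the vehicle or TGFB1 + BI6727 libraries was left out (adjusted p 0.0397, 0.0217, 0.0116 and 0.0302 by edgeR), whereas Id2 stayed called in each of these fits, with an adjusted p of at most 0.00808 by edgeR. All 4 genes had both TGFB1 + BI6727 libraries below both vehicle libraries, as had 37% of the genes kept by filterByExpr.

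Id2 did not keep step with Id1. Within a library the ratio of 2 genes does not depend on the library's scaling, and log2 of Id2 TPM over Id1 TPM was -1.99 and -2.02 in the vehicle libraries, -2.70 and -3.05 with TGFB1 + DMSO, and -3.23 and -3.48 with TGFB1 + BI6727. The 3 groups did not overlap in this ratio, but how many other pairs of genes separate in this way was not counted. Between the groups with TGFB1 the nearest values, -3.05 and -3.23, lay closer together than the 2 TGFB1 + DMSO libraries did. By contrast, log2 of Id3 over Id1 was -0.31 and -0.48 with vehicle and between -0.72 and -0.64 in the 4 libraries with TGFB1, where the groups overlapped, and log2 of Id4 over Id1 ranged from -6.59 to -6.20 with all 3 groups overlapping. The difference in response between the genes was not tested.

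Of the 3 E protein genes, whose products pair with ID proteins, 0 were called in any comparison by edgeR or by DESeq2, and 2 had an unadjusted p below 0.05 in each comparison with vehicle. Tcf3 (E2A), the most abundant, had 271 and 267 normalized CPM with vehicle, 245 and 251 with TGFB1 + DMSO and 231 and 217 with TGFB1 + BI6727. Tcf12 (HEB) went from 151 and 149 with vehicle to 107 and 90.3 with TGFB1 + DMSO and 106 and 107 with TGFB1 + BI6727, a difference of -0.60 ± 0.11 on the log2 scale for TGFB1 + DMSO (adjusted p = 0.00770 by edgeR), under 2-fold. Tcf4 had 90.4 and 75.4 with vehicle, 71.5 and 46.0 with TGFB1 + DMSO, and 58.1 and 67.4 with TGFB1 + BI6727.

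Per length, the summed TPM of the ID genes was above that of the E protein genes in all 6 libraries. This rests on the lengths of the count table, which take in all annotated exons of a gene. A length greater than that of the transcript made lowers the TPM. In vehicle replicate 1, Tcf4 had 90.4 normalized CPM but 6.51 TPM. In normalized CPM, which takes no account of length, Tcf3 was above every ID gene in all 6 libraries. In the vehicle libraries, the 4 ID genes summed to 674 and 618 TPM and the 3 E protein genes to 158 and 153 TPM, a ratio of 4.26 and 4.05. With TGFB1 + DMSO the ratio was 1.75 and 2.17, and with TGFB1 + BI6727 2.46 and 2.06. The group means were 4.15 ± 0.15 (SD, n = 2), 1.96 ± 0.30 (SD, n = 2) and 2.26 ± 0.28 (SD, n = 2). Both vehicle libraries lay above the other 4, and the 2 groups with TGFB1 overlapped. The ratio is one of transcripts and says nothing of protein amounts.

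**Figure D3:**
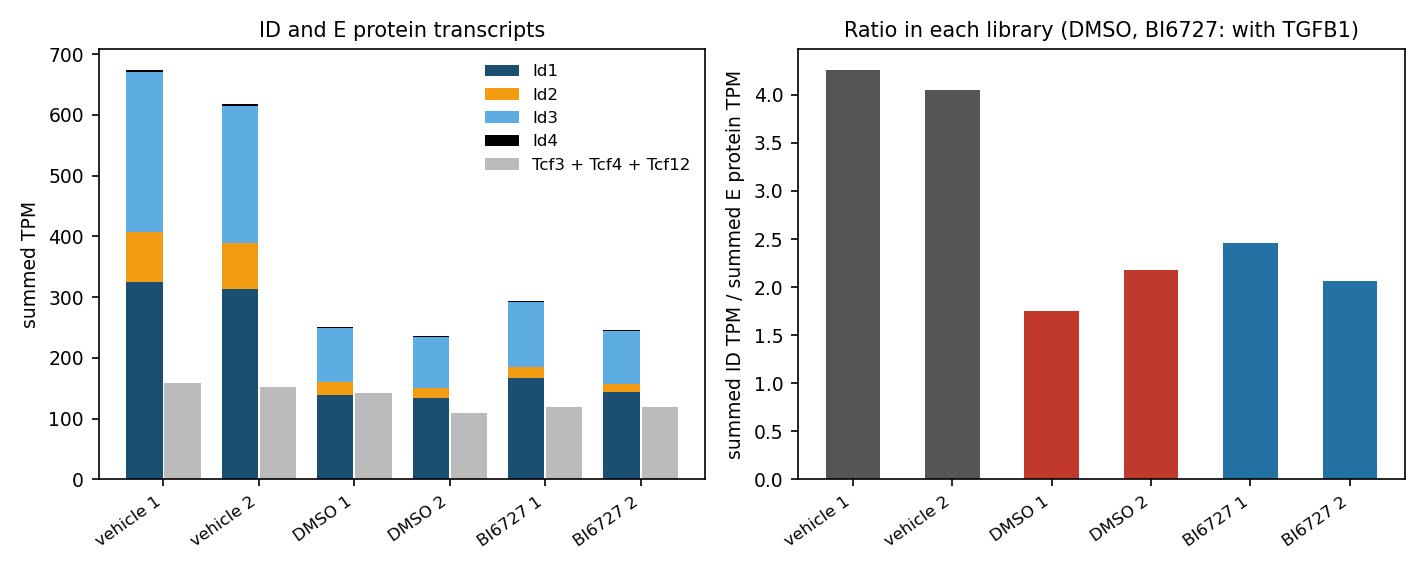
Left, summed TPM (y axis) of the ID genes, stacked by gene, beside the summed TPM of Tcf3, Tcf4 and Tcf12 in each library. Right, the ratio of the 2 sums, with both axes starting at 0: 4.26 and 4.05 in the vehicle libraries and 1.75 to 2.46 in the libraries with TGFB1.

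The partners and relatives of the ID genes were read from lists of 121 genes around the ID pathway, of which 64 passed the filter. In TGFB1 + DMSO against vehicle 12 of the 64 were called higher and 5 lower, against 2.56% of all genes higher and 2.53% lower, and in TGFB1 + BI6727 against vehicle 12 were higher and 4 lower, against 2.34% and 2.96%. The filter can be passed through the 4 libraries with TGFB1 alone, but not through the 2 vehicle libraries alone. Hes1, Atf3 and Fstl3, below 10 normalized CPM with vehicle, passed in this way and are among those called higher. Atoh8 and Smad9, called lower after filterByExpr, failed it, so that the numbers higher and lower are not on an equal footing. Without either vehicle library these totals came to 8 in the first comparison and 9 in the second. In TGFB1 + BI6727 against TGFB1 + DMSO 0 of the 64 were called by edgeR and 0 by DESeq2. Without TGFB1 + DMSO replicate 1, 2 were called, Fn1 (higher) and Atf3 (lower).

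Among the 16 tissue-specific partners of E proteins, 2 passed the filter, Twist1 and Twist2, both regulators of mesenchymal cells. Twist2 fell from 47.8 and 43.4 to 22.4 and 23.0 normalized CPM with TGFB1 + DMSO (log2 fold change -1.01 ± 0.14, adjusted p = 0.00270 by edgeR), a call that DESeq2 did not make. The log2 fold change of all genes had a median of -0.0045 in this comparison. Twist1 was at -0.28 ± 0.11 and was not called. Atoh8, a bHLH factor and a BMP target like the ID genes, failed the filter through its low level with TGFB1: it had 45.6 and 43.4 normalized CPM with vehicle, 4.39 and 4.91 with TGFB1 + DMSO and 5.01 and 3.89 with TGFB1 + BI6727. In the fit with filterByExpr, which called 2.75% of genes higher and 3.23% lower for TGFB1 + DMSO and 2.51% higher for TGFB1 + BI6727, its log2 fold change was -3.25 ± 0.18. Of the 7 HES and HEY repressors and their relatives, 3 passed the filter and 2 were called higher. Hes1, a bHLH repressor best known downstream of Notch, rose from 2.39 and 3.09 to 57.0 and 56.7 normalized CPM, and was at 39.6 and 32.6 with TGFB1 + BI6727. Bhlhe40, a repressor induced by TGF-β in several cell types, rose by 1.31 ± 0.13 on the log2 scale.

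The upstream BMP branch was examined by role. None of the 13 BMP ligands passed the filter, and the highest of them, Gdf5, had 0.890 to 2.08 normalized CPM. Of the 11 BMP receptors and coreceptors 6 passed, and Rgma, a BMP coreceptor, fell from 51.6 and 48.6 to 22.3 and 18.3 normalized CPM (log2 fold change -1.30 ± 0.15) and was at 16.7 and 19.3 with TGFB1 + BI6727. The type I receptor genes Bmpr1a (-0.34 ± 0.10) and Acvr1 (0.56 ± 0.22) and the coreceptor gene Rgmb (-0.59 ± 0.09) were not called with TGFB1 + DMSO. Rgmb missed only by the 2-fold limit (adjusted p = 0.00439 by edgeR). Acvrl1, a type I receptor best known in endothelium, was called higher after filterByExpr at a low level, from 1.04 and 0.774 to 2.66 and 3.76 normalized CPM. The summed endothelial markers were at most 0.910 with vehicle, 2.89 to 3.77 with TGFB1 + DMSO and 2.00 to 2.65 with TGFB1 + BI6727, and their part was not tested.

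Of the 13 BMP antagonists 6 passed. Bmper, an extracellular modulator of BMPs, fell from 70.7 and 58.1 to 25.1 and 20.2 normalized CPM, and Fstl3, which binds activins and some BMPs, rose from 7.43 and 9.65 to 24.9 and 22.3. The abundant antagonists Fstl1 (0.08 ± 0.11) and Twsg1 (-0.68 ± 0.12 on the log2 scale) were not called with TGFB1 + DMSO. Twsg1 missed only by the 2-fold limit (adjusted p = 0.00818 by edgeR). Of the SMADs that carry BMP signals, Smad1 (0.32 ± 0.10), Smad5 (-0.27 ± 0.15) and the shared Smad4 (-0.20 ± 0.10) were not called. Smad9, a receptor-regulated SMAD and itself a BMP target, failed the filter and had 13.1 and 11.6 normalized CPM with vehicle, 3.48 and 5.15 with TGFB1 + DMSO and 3.95 and 3.02 with TGFB1 + BI6727. Its log2 fold change after filterByExpr was -1.51 ± 0.25 for TGFB1 + DMSO. In the list of 12 other BMP targets, 3 passed the filter. With TGFB1 + DMSO, Smad7 was called higher, and Runx2 (-0.0043 ± 0.19) and Smad6 (-0.80 ± 0.14 on the log2 scale) were not called. Smad6, an inhibitory SMAD, missed only by the 2-fold limit (adjusted p = 0.00703 by edgeR). It had 18.8 and 19.0 normalized CPM with vehicle and 9.19 to 11.1 in the libraries with TGFB1. Sp7, an osteoblast factor, was near 0 with vehicle (0.104 and 0 normalized CPM) and at 1.35 to 3.45 in the libraries with TGFB1.

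TGF-β target genes were mostly higher, in a list chosen with earlier results of these data known. Of 13 TGF-β target genes 11 passed the filter, and 7 were called higher and 0 lower by edgeR with TGFB1 + DMSO (9 at an unadjusted p below 0.05, 7 called by DESeq2), with a median log2 fold change of 1.31 beside -0.0045 over all genes tested. They included Ccn2 (a matricellular protein), Acta2 (smooth muscle actin), Skil, Smad7, Pmepa1 and Bhlhe40. Ccn2 rose from 30.9 and 33.2 to 385 and 419 normalized CPM, and Acta2 from 92.1 and 100.2 to 476 and 473. Fn1 and Junb, the other abundant targets, were not called (0.45 ± 0.35 and 0.44 ± 0.15 on the log2 scale). Tgfbi failed the filter and was in neither the number called nor the median. After filterByExpr it was at -1.09 ± 0.28 on the log2 scale with TGFB1 + DMSO and was not called. The other listed target that failed the filter was on the higher side and was not called either. With TGFB1 + BI6727, Tgfbi was called lower after filterByExpr, at 2.45 and 2.32 normalized CPM against 11.5 and 11.9 with vehicle. Among the 9 inhibitors of SMAD signalling, of which 8 passed, Smad7, Skil, Tgif1 and Pmepa1 were called higher, by 1.23 ± 0.12, 2.35 ± 0.14, 1.29 ± 0.09 and 2.83 ± 0.11 on the log2 scale, and Smurf1 (0.08 ± 0.12) was not called. Smad3, which carries TGF-β signals, fell from 70.2 and 72.4 to 32.4 and 26.0 normalized CPM, while Smad2 was at 60.9 and 59.1 with vehicle and at 65.5 and 60.6 with TGFB1 + DMSO. Tgfbr3, the TGF-β coreceptor betaglycan, fell from 138 and 112 to 21.8 and 16.9, and Tgfbr1 and Tgfbr2 (-0.60 ± 0.13 and -0.68 ± 0.19 on the log2 scale) were not called.

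**Figure D4:**
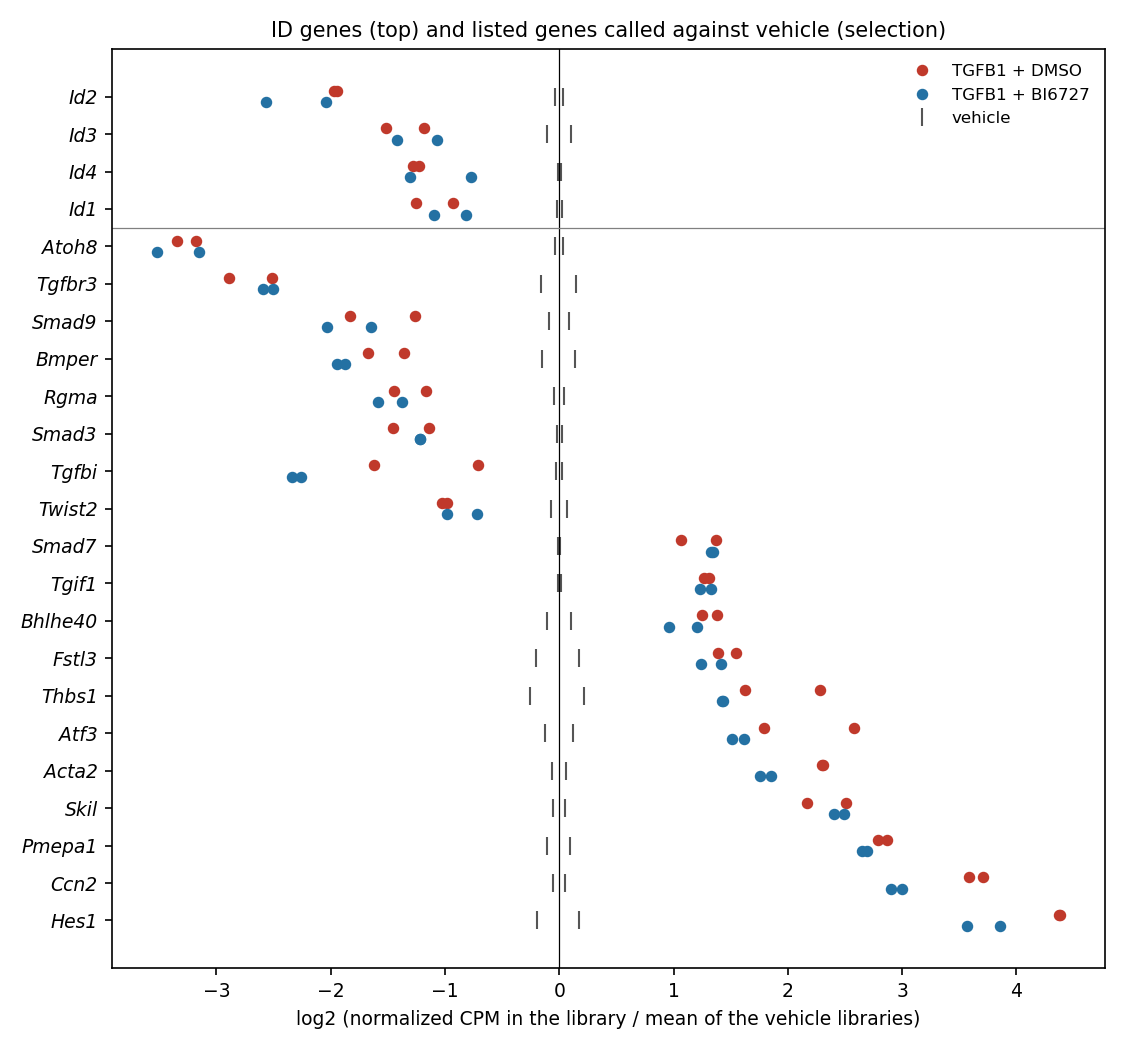
Log2 of normalized CPM in each library over the mean of the vehicle libraries (x axis) for the ID genes, above the grey line, and 19 of the listed pathway genes called in a comparison with vehicle, among those whose vehicle mean was above 1 normalized CPM. Red points are TGFB1 + DMSO, blue points TGFB1 + BI6727 and grey ticks vehicle libraries; Atoh8 lies lowest and Hes1 highest, and the ID genes lie between 16.9 and 58.5% of the vehicle mean in the libraries with TGFB1.

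Of the transcription factors known to act on Id genes, 7 of 9 passed the filter and 1 was called. Atf3, a stress-induced factor that represses Id1 together with SMAD3 in epithelial cells, had 4.26 and 5.05 normalized CPM with vehicle, 16.1 and 27.7 with TGFB1 + DMSO and 14.3 and 13.2 with TGFB1 + BI6727, a rise of 2.23 ± 0.28 on the log2 scale with TGFB1 + DMSO (adjusted p = 0.00175 by edgeR). Egr1 (0.03 ± 0.20), Klf4 (0.64 ± 0.09) and Srf (0.41 ± 0.10) were not called. Klf4 missed only by the 2-fold limit (adjusted p = 0.00327 by edgeR). The genes that control ID protein stability, among them the deubiquitinase gene Usp1 and the APC/C activator gene Fzr1, gave 0 calls in 5 tested genes in all 3 comparisons by edgeR and by DESeq2, with 2 at an unadjusted p below 0.05 in each. Usp1 was at 169 and 181 normalized CPM with vehicle, 160 in both TGFB1 + DMSO libraries, and 120 and 128 with TGFB1 + BI6727.

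Of the 11 cell cycle and other genes listed as downstream of ID and E proteins 8 passed. Only Thbs1, a matricellular gene repressed by ID1 in some cells and not a cell cycle gene, was called. It had 92.1 and 66.1 normalized CPM with vehicle, 385 and 244 with TGFB1 + DMSO and 214 and 212 with TGFB1 + BI6727. Cdkn1a, which encodes the inhibitor p21 and is activated by E proteins, had 340 and 375 with vehicle, 597 and 698 with TGFB1 + DMSO and 622 and 670 with TGFB1 + BI6727, and its log2 fold change of 0.86 ± 0.12 with TGFB1 + DMSO (adjusted p = 0.00294 by edgeR) was under 2-fold. Ccnd1, the cyclin D1 gene, had a log2 fold change of 0.57 ± 0.15 with TGFB1 + DMSO and of 0.95 ± 0.15 with TGFB1 + BI6727, and was not called in either. With TGFB1 + BI6727 it missed only by the 2-fold limit (adjusted p = 0.00432 by edgeR).

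The genes whose profile over the 6 libraries was most like that of each ID gene were taken by the root mean square difference of log2 CPM, each profile being centred on its own mean, among the 9517 other genes tested. For Id2 these were Gypc (0.0790), Casp12 (0.0922), Casp4, Cd34 and Ngef. Gypc, a membrane glycoprotein gene, had 83.7 and 77.9 normalized CPM with vehicle, 22.02 and 21.5 with TGFB1 + DMSO and 18.4 and 15.2 with TGFB1 + BI6727. For Id1 they were Sod2 (0.0784), Cab39l, Pgrmc1, Dtwd1 and Galk2, and for Id3 Idh1 (0.114), Nsg1, Fam43a, Pgrmc1 and Snai2. Id1 was the gene at rank 6 for Id3, with a difference of 0.140, and Id3 was at rank 23 for Id1. Id2 was at rank 1106 for Id3 and 6090 for Id1. In the other direction, Id3 was at rank 123 for Id2 (0.451) and Id1 at rank 244 (0.572). With the trend on gene length removed from each library, 0 of the 5 genes for Id1, 2 of 5 for Id2 and 2 of 5 for Id3 were again among the nearest.

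**Figure D5:**
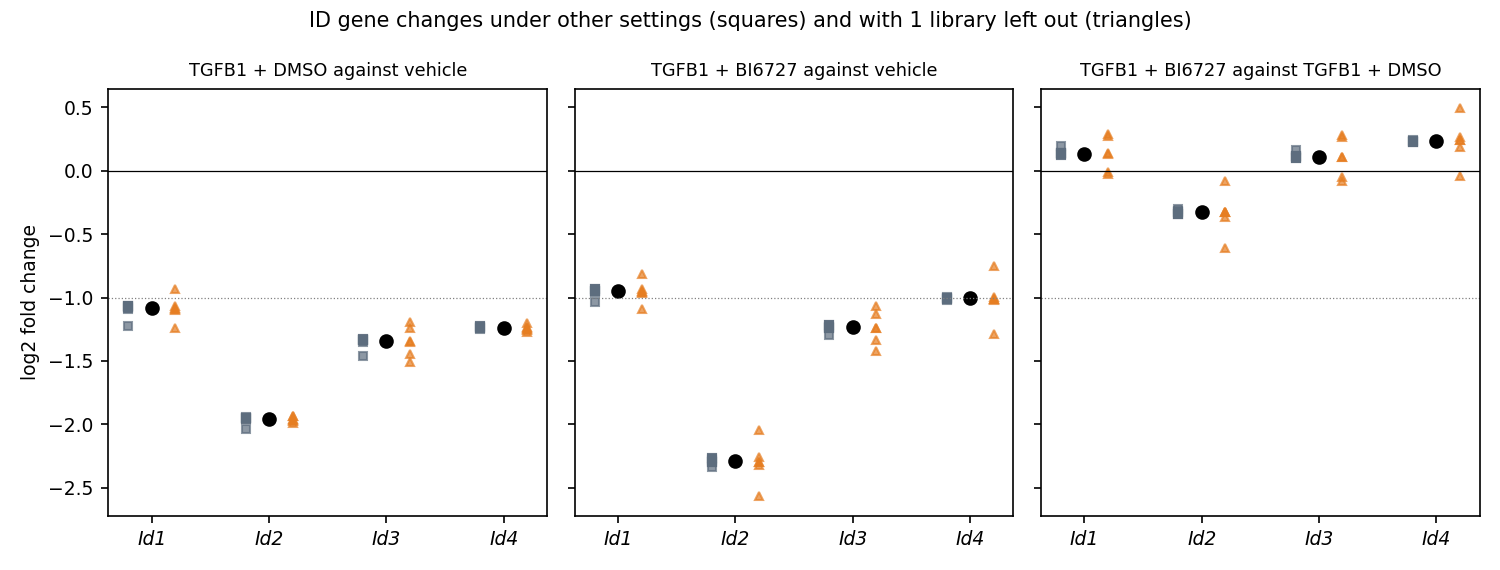
Log2 fold change (y axis) of each ID gene in the 3 comparisons as given above (black circles), with other normalizations, filters, tools and blocks (grey squares) and with 1 library left out (orange triangles); the dotted line marks a 2-fold fall. Against vehicle every value lies below 0, and between the 2 groups with TGFB1 the triangles of Id1, Id3 and Id4 lie on both sides of 0.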

How the data were processed

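Gene counts of 6 RNA-seq libraries were used as deposited by the authors, who mapped single-end reads to mm10 with Subjunc (Subread 1.6.4) and counted them on Gencode M20 genes with featureCounts; the strand setting is not given in the sources used here. Groups and replicate numbers came from the sample labels. Gene symbols were matched for 54723 of 54752 identifiers. The filter required 10 CPM or more in over 3 samples. A single model of all 6 libraries, with 3 residual degrees of freedom, was fitted by quasi-likelihood after TMM scaling (edgeR 4.0.16, R 4.3.3), and calls were made at a Benjamini-Hochberg adjusted p below 0.01 and a fold change above 2; Id4 and other genes below the filter were read from a fit with filterByExpr. TPM were computed from the counts and the gene lengths in the deposited table. DESeq2 1.42.0, other scalings, filters, thresholds, a replicate block, length offsets (lowess, span 0.3) and each library left out were alternatives. The test was tested on simulated data. The ID genes and the lists were chosen with earlier results of these data known. Named genes are the ID genes, the listed genes called in any comparison and the 3 of each list with the highest mean TPM, and the 5 nearest profiles; genes of the lists outside this rule (Smad6) and some markers were picked with their values in view. A few genes so selected are not reported here. Intervals cover the spread between these libraries.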

Additional observations from a re-analysis of the deposited data

How the results depend on the processing

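Against vehicle, all 4 ID genes kept their direction under every alternative that was run. Among 177 recomputed log2 fold changes of the ID genes, 150 kept direction and side of the threshold, 17 lost a call, 5 gained one and 5 changed sign, all 5 between the groups with TGFB1. Length offsets took Id1 past 2-fold in TGFB1 + BI6727 against vehicle (-1.03). For Id4 against vehicle, the call with TGFB1 + DMSO was lost with only the 2 groups fitted (-1.23), and one with TGFB1 + BI6727 was gained with DESeq2 (-1.003) and with only the 2 groups (-1.01). Causes were not tested.

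With 1 library left out, the number of ID genes called ranged from 0 to 3 for TGFB1 + DMSO and from 1 to 2 for TGFB1 + BI6727 against vehicle, and that of listed pathway genes from 8 to 17 and from 9 to 16, and from 0 to 2 between the groups with TGFB1. The log2 fold changes for TGFB1 + DMSO against vehicle then ranged from -1.24 to -0.93 (Id1), -1.99 to -1.93 (Id2), -1.51 to -1.19 (Id3) and -1.28 to -1.20 (Id4). For TGFB1 + BI6727 against vehicle, Id3 ranged from -1.42 to -1.07 and Id4 from -1.29 to -0.75. Between the groups with TGFB1, Id1 ranged from -0.022 to 0.29, Id2 from -0.61 to -0.079, Id3 from -0.079 to 0.28 and Id4 from -0.043 to 0.49.

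The deviations of same-numbered replicates had correlations of -0.11, 0.05 and -0.26 over the 3 pairs of groups. These values showed no pairing by number and, with 2 libraries a group, cannot exclude one. With the replicate number as a block, 3, 0 and 2 ID genes were called, as without it, and Id4 after filterByExpr lost its call (-1.25, adjusted p = 0.0126 by edgeR). A crossed pairing, chosen after seeing the data, also gave 3, 0 and 2 calls. The mean ratio of ID to E protein TPM with vehicle was 3.62 with Id1 and Id3 alone in the sum. Of the 5 nearest profiles, 0 (Id1), 2 (Id2) and 2 (Id3) were shared after removal of the length trend. With 71 to 180 counts, Id4 is the member that depth limits most.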
